A study of Mus musculus with 16 samples.

Results

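Replication-dependent histone genes were followed in cultured mouse cortical neurons that carried exon 1 of huntingtin and a short hairpin RNA (shRNA). The set holds every deposited gene whose Ensembl identifier has a symbol starting with Hist1h, Hist2h, Hist3h or Hist4h in GENCODE release M21. That rule uses no expression value and took 67 of the 41388 listed genes. By class these were 6 genes of the linker histone H1, 20 of H2A, 16 of H2B, 12 of H3 and 13 of H4. Of the 67 genes, 54 passed the filter on low counts and were tested, and 13 did not. Hist1h2bm, Hist1h2bh and Hist2h2bb also have such a symbol in that release and were not analysed here.

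The neurons came from Swiss Webster embryos at embryonic day 16, were transduced with lentivirus at day 5 in vitro and were harvested at day 10. The 25Q control group received an exon 1 fragment with a wild-type tract of 25 glutamines together with an shRNA against luciferase, a sequence foreign to the mouse. The 72Q control group received a mutant tract of 72 glutamines with the same luciferase shRNA, and the other 2 groups received the 72Q fragment with Twist1 shRNA 1 or Twist1 shRNA 2. Each group had n = 4 libraries, 1 from each experiment (labelled exp107, exp108, exp109a, exp109b). The labels exp109a and exp109b carry the same number, and whether they are separate experiments or parts of the same one is not said. All 4 groups thus carry 2 viruses, and none was left untransduced. Whether the experiments used cultures of their own is not said in the labels, and the p-values below rest on the spread among these libraries, which may be technical.

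Most of these genes lie in clusters, have no intron and are switched on when DNA is copied, supplying the histones that package the new strands. Their mRNAs end at a stem-loop in place of a poly(A) tail. The stem-loop binding protein (encoded by Slbp) binds it, and the U7 particle (with Lsm10 and Lsm11) also takes part in 3′ end formation. Neurons no longer divide, and some of these genes are known to give polyadenylated mRNAs in cells that have left the cycle. Libraries were made from total RNA depleted of ribosomal RNA, a method that does not select for poly(A) tails.

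The stem-loop is shown for 8 members on which the results below turn, because it is the feature that sets this mRNA class apart. The letters searched, on the transcript strand, were GG, any 2 bases, CTTTT, any base, AG, any 2 bases and CC. They were found in an M21 transcript of 42 members, at 21 to 58 bases after the stop codon. Among all protein-coding transcripts of that release 0.167% held them, 98 of 58797. In M21, 54 members had a protein-coding transcript running past the coding region, and all 42 with the letters were among these. Sites are given 5′ to 3′, with the stem and loop in capitals and 5 bases on either side.
Hist1h1c: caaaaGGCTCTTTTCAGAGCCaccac
Hist3h2a: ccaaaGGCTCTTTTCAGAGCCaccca
Hist3h2ba: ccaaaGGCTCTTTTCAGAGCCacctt
Hist1h2bb: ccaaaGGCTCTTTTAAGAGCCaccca
Hist1h3f: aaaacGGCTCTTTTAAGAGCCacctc
Hist1h4d: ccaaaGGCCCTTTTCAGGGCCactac
Hist1h4i: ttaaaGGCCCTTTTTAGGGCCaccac
Hist2h4: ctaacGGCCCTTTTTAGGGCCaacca

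The 42 sites used 6 different stem-loops, and H4 genes shared none of theirs with the other classes. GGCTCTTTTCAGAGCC was present in 24 members of H1, H2A, H2B and H3, and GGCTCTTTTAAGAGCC in 6. All 31 sites outside H4 opened with GGCTC. Of the 11 sites in H4 genes, 7 were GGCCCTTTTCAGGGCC, 2 were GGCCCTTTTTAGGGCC (Hist1h4i and Hist2h4) and 2 were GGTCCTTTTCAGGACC (Hist1h4b and Hist1h4j). Some annotated transcripts ran far past the loop, at most 4884 bases in Hist1h1d, and others ended as near as 3 bases after it (Hist1h4m and Hist1h2ap). Among those in between, Hist4h4 extended 2445 bases beyond it, Hist3h2a 1643, Hist2h4 1257, Hist1h1c 840 and Hist1h2bb 23. M21 transcripts can exceed the listed length, as in Hist1h1d (7425 against 744 bases). A polyadenylation signal stood in the last 50 bases of an annotated transcript of 15 members.

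The promoters of 4 members are printed because these genes moved differently within a class or share a start region. RefSeq promoter windows on GRCm38.p6 (250 bases before to 50 after the start) matched 59 of the 67 members, in 60 windows. CCAAT, the box that the factor NF-Y binds, was found on either strand in 85% of the 60 windows, against 37.41% of 32851 RefSeq promoters. TATAAA was found in 58.33% against 13.62%, and ATTTGCAT, the octamer of OCT factors, in 20% against 1.74%. Motifs were searched on both strands and counted separately, overlapping or not. The octamer was in 7 of 18 H2A and 5 of 14 H2B windows and in none of the 6 H1, 10 H3 and 12 H4 windows. Windows of neighbouring H2A and H2B genes read away from each other can overlap, and the same site then counts in both. This holds for the octamer of Hist1h2ae and Hist1h2bg, so windows with a motif are not all separate sites. All H1, H2A, H2B and H3 windows held CCAAT, compared with 3 of 12 in H4. A match describes the letters and is no evidence of binding. The bases before the start are given 5′ to 3′ on the gene's strand, with matches to these motifs or their reverse complements in capitals. Hist1h4d is at chr13:23581318-23581567, Hist1h1c at chr13:23738557-23738806, Hist1h1a at chr13:23763418-23763667, all on the plus strand, and Hist1h2ac at chr13:23683960-23684209 on the minus strand. The Hist1h2ac window covers most of the 274 bases between it and Hist1h2bc, which is read the other way.
Hist1h4d: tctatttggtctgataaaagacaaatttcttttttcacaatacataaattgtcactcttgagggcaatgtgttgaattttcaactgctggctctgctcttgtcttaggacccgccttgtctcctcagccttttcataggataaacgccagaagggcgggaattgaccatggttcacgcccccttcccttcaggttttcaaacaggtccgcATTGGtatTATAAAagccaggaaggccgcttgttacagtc
Hist1h1c: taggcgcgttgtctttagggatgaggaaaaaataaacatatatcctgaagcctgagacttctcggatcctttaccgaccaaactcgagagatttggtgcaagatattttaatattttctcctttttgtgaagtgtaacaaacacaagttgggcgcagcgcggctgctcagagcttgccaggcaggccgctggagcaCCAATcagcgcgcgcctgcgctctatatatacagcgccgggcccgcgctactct
Hist1h1a: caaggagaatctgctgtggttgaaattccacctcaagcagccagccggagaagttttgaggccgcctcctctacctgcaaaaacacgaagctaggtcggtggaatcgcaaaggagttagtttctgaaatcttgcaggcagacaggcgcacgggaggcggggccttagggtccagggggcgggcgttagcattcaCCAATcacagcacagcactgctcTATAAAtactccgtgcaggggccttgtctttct
Hist1h2ac: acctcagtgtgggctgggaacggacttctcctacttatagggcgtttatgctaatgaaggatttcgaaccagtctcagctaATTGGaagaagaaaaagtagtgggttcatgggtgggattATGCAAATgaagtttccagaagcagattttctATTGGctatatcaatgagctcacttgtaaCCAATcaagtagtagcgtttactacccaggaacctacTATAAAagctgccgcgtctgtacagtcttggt

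Libraries held 15814525 to 19533034 assigned counts, of which the 67 histone genes made up 0.1002%. Twist1, the shRNA target, stood at 0 to 0.550 CPM, counts scaled to a common library total, in 25Q control, 3.29 to 5.07 in 72Q control, 0.903 to 1.87 with shRNA 1 and 1.29 to 2.19 with shRNA 2. The last 2 groups did not overlap with the 72Q control. CPM of single genes are scaled by TMM factors, which correct for composition. Changes are log2 fold changes ± SE from edgeR's quasi-likelihood test, with p adjusted by Benjamini-Hochberg over 15103 genes. The words rose and fell are kept for genes with an adjusted p under 0.05. All 12 neuronal markers, 12 astrocyte markers and 12 markers of the oligodendrocyte lineage had counts in every group, and the labels name no sort before RNA extraction. In such bulk RNA, fewer cells of a type and less RNA per cell cannot be told apart.

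Histone levels per length spanned several orders of magnitude and were led by a single H4 gene. Hist1h4d (ENSMUSG00000061482, chr13:23581598-23581990) averaged 542.2 RPKM, which is CPM per kilobase of listed length, with a range of 388.6 to 669.8 over the 16 libraries. It held 21.22% of all histone counts. Next came Hist1h4c at 93.9 RPKM, Hist1h4h at 88.1, Hist1h4k at 72.2 and the H2A gene Hist1h2ak at 67.8. Hist3h2ba led H2B at 63.3 RPKM, Hist1h1e led H1 at 61.1 and Hist1h3e led H3 at 48.0. H4 genes as a class took 49.99% of the counts, H1 14.79%, H2B 13.64%, H2A 11.3% and H3 10.3%. The rest of the 12 highest were Hist1h4a, Hist1h4f, Hist1h2bb and Hist1h2al, at 58.9, 56.5, 44.0 and 42.3 RPKM. By raw counts, which longer listed genes gather faster, the leaders were Hist1h1c in H1 and Hist1h4d in H4.

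**Figure D1:**
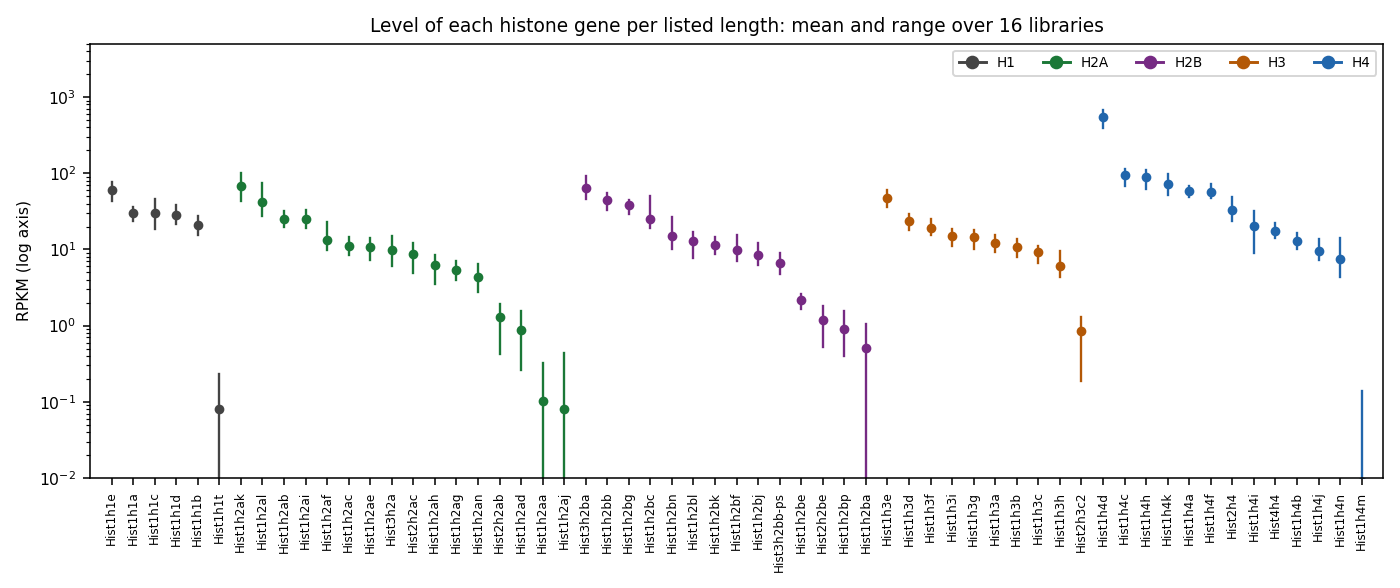
Mean RPKM (points) and lowest to highest of 16 libraries (lines) for the histone genes with any count, on a log axis, ordered by class. Hist1h4d, at 542.2 RPKM, stands above every other member, lines reaching the lower edge include libraries with no count, and the mean of Hist1h4m lies under the axis.

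At the bottom, 8 members had no count in any library. They were Hist1h2ao, Hist1h2ap, Hist1h2bq, Hist1h2br, Hist2h2aa1, Hist2h2aa2, Hist2h3b and Hist2h3c1. Each of the pairs Hist1h2ao with Hist1h2ap, Hist1h2bq with Hist1h2br, and Hist2h2aa1 with Hist2h2aa2 has the same coding sequence in M21, as do Hist2h3c1 and Hist2h3c2, which had 243 counts. Hist1h4m, with 1 count in all, is identical in coding sequence to Hist1h4n. The sources used here do not say how reads fitting more than 1 gene were counted, and a count of 0 in such a pair need not mean that no such RNA was present. The other untested genes were the testis-type genes Hist1h1t (17 counts over the 16 libraries), Hist1h2ba (55) and Hist1h2aa (11), and the pseudogene Hist1h2aj (8). Across the 67 members, 32 shared at least 50% of their 50-base stretches with another member. Values of those genes are uncertain by the share of reads they exchange.

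With the expanded fragment, histone genes moved in both directions and not as a block. Of the 54 tested, 14 rose and 7 fell in 72Q control against 25Q control. Over all genes tested 57.1% were called, 29.3% risen and 27.8% fallen, so the risers were near the background share (25.93%) and the fallers below it (12.96%). The median change of the 54 was 0.10 log2 units beside 0.03 over all genes. Of the 21 calls 7 held under all 25 alternatives: Hist1h1a, Hist1h1c, Hist1h2bc, Hist1h2bk, Hist1h3f, Hist3h2ba and Hist4h4. Without the experiment term 4 rose and 3 fell, while the share of all genes called was 43.21% in place of 57.13%. Without the 25Q library of exp108 7 rose and 7 fell. TMM factors were 0.898 to 0.949 in 25Q and 0.990 to 1.03 in 72Q control; with library totals alone the all-gene median was 0.16 in place of 0.03, and 26 rose and 4 fell. Upper-quartile factors gave 20 and 6, and DESeq2 gave 7 and 7. Of all genes called, 51.36% rose in the main fit, 69.64% on library totals, 60.72% with upper-quartile factors and 49.22% under DESeq2.

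Linker histone genes, whose proteins bind where DNA enters and leaves the nucleosome, moved in opposite directions. Of 5 tested, 1 rose and 2 fell, which is 20% and 40%, beside 29.3% and 27.8% of all genes. Hist1h1c (chr13:23738808-23740367) stood at 66.5, 70.7, 52.2 and 57.0 CPM in the 25Q libraries of exp107, exp108, exp109a and exp109b. In the 72Q control libraries, in the same order, it stood at 50.9, 45.4, 43.0 and 38.5. All 4 values were below all 4 of the 25Q group, a change of -0.47 ± 0.076 (adjusted p = 1.48e-05). Hist1h1a (chr13:23763717-23764358) went the other way, from 18.6, 16.1, 15.3 and 17.3 CPM to 21.3, 21.3, 20.7 and 21.8. These groups did not overlap either, and the change was 0.34 ± 0.071 (adjusted p = 0.000153). Hist1h1e, the member with the highest RPKM of the class, fell slightly, by -0.21 ± 0.057, with overlapping groups. That call ended with library totals alone and without the experiment term. Hist1h1b (0.21 ± 0.093, adjusted p = 0.0505) and Hist1h1d (-0.03 ± 0.073) did not pass.

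Among H2B genes, partners of H2A in the dimer, the 2 largest falls of the whole set stood beside 4 rises. Hist3h2ba (chr11:58948920-58949533) had 54.7, 56.8, 45.1 and 47.3 CPM in 25Q and 34.1, 35.5, 35.0 and 32.4 in 72Q control. Every 72Q value lay below every 25Q value, and the change was -0.57 ± 0.058 (adjusted p = 1.24e-09). Hist1h2bc (chr13:23684199-23692488) had 19.9, 37.5, 21.4 and 22.3 CPM in 25Q and 14.8, 20.99, 14.2 and 16.7 in 72Q control. The exp108 library was the highest in both groups and made them overlap, and the change was -0.58 ± 0.089 (adjusted p = 2.07e-06), with a range of -0.65 to -0.43 over all alternatives. Hist1h2bf (0.48 ± 0.15), Hist1h2bk (0.46 ± 0.13), Hist1h2bj (0.33 ± 0.14) and Hist1h2bn (0.30 ± 0.12) rose. Of these 4, the call of Hist1h2bf ended without the exp108 library of either group, and those of Hist1h2bj and Hist1h2bn under DESeq2. In H2A, Hist1h2ah (0.43 ± 0.18), Hist1h2af (0.35 ± 0.12) and Hist1h2ai (0.24 ± 0.097) rose and the pseudogene Hist1h2al fell by -0.31 ± 0.080, out of 14 tested. Shares risen and fallen were 30.77% and 15.38% in H2B and 21.43% and 7.143% in H2A, beside 29.3% and 27.8% of all genes. The calls of Hist1h2ah and Hist1h2ai ended under DESeq2.

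In H3, 3 of 10 rose and none fell, a share of rises near the 29.3% of all genes. Hist1h3f (chr13:23544465-23545312) had 14.0, 16.0, 14.5 and 12.9 CPM in 25Q and 21.6, 20.9, 18.1 and 19.3 in 72Q control. The groups did not overlap, and the change was 0.47 ± 0.075 (adjusted p = 3.32e-06). Hist1h3c (0.29 ± 0.12) and Hist1h3a (0.26 ± 0.11) rose with calls that ended under DESeq2. In H4, Hist1h4k (0.30 ± 0.084), Hist4h4 (0.29 ± 0.061) and Hist1h4c (0.17 ± 0.073) rose, while Hist2h4 (-0.28 ± 0.059) and Hist1h4h (-0.20 ± 0.064) fell, out of 12. These shares, 25% and 16.67%, were under the 29.3% and 27.8% of all genes. The call of Hist1h4c ended under DESeq2, and those of Hist1h4k, Hist2h4 and Hist1h4h without the experiment term. Hist4h4, the only member on chromosome 6, had 44.8 to 51.9 CPM in 25Q and 51.9 to 63.7 in 72Q control, without overlap (51.85 against 51.89 at the nearest). The dominant Hist1h4d had 220.3 to 263.2 CPM in 25Q and 226.5 to 258.5 in 72Q control, overlapping groups with a difference of 0.05 ± 0.051 (adjusted p = 0.406).

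**Figure D2:**
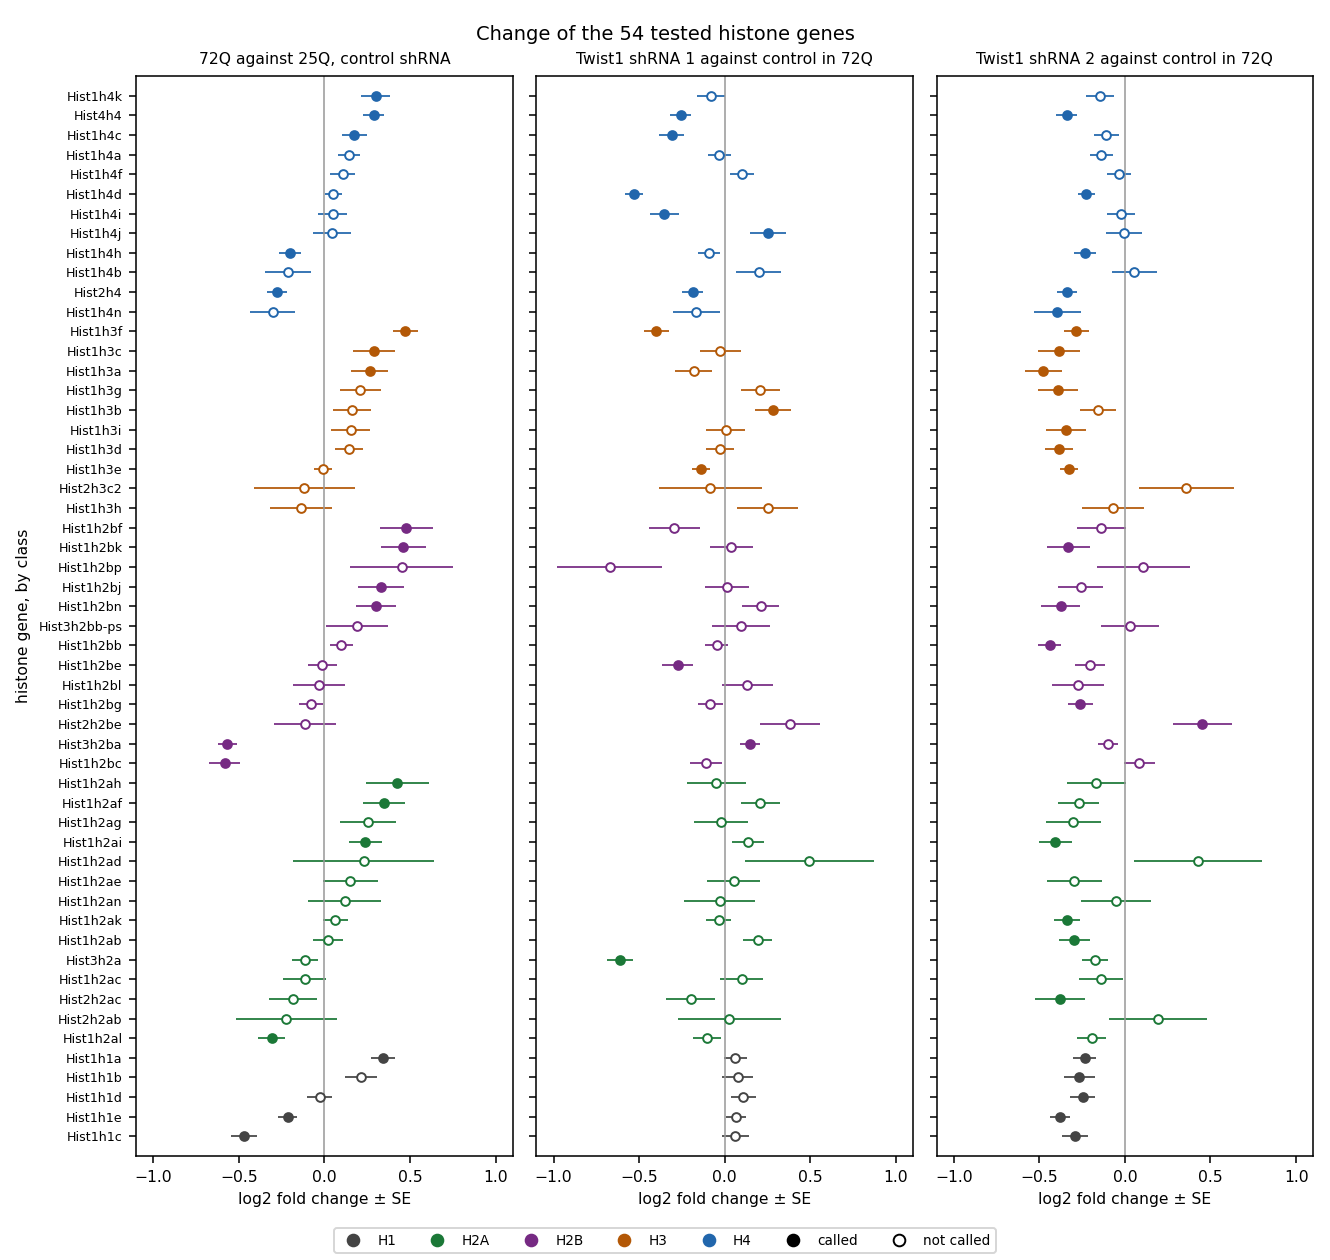
Log2 fold change ± SE of the 54 tested histone genes, by class, in 72Q against 25Q (left) and for Twist1 shRNA 1 (middle) and shRNA 2 (right) against 72Q control (n = 4 libraries a group); filled points passed the adjusted p threshold of 0.05. The left panel holds 14 filled points above 0 and 7 below, the middle panel 3 and 9, and the right panel 1 and 25; the middle and right panels share their control libraries.

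Genes around histone mRNA were compared as lists, whose counts are descriptions and stand beside 29.3% of all genes risen and 27.8% fallen. Of 25 genes for 3′ processing and turnover, 11 rose and 4 fell in 72Q (median 0.12, all genes 0.03). Slbp had 26.2 to 28.4 CPM in 25Q and 35.0 to 38.1 in 72Q control, without overlap, a change of 0.41 ± 0.062 (adjusted p = 2.06e-06). Ncbp2, a subunit of the cap-binding complex, rose by 0.52 ± 0.062 and Fip1l1, of the cleavage and polyadenylation complex, by 0.36 ± 0.044. Lsm11, the U7 particle subunit, fell from 257.0 to 281.6 CPM in 25Q to 106.3 to 172.6 in 72Q control (-0.93 ± 0.10), and Lsm10, its partner, did not pass (-0.05 ± 0.076). Npat, the coactivator of histone transcription at the entry to S phase, rose by 0.16 ± 0.059, a call that ended under DESeq2. Of 11 replication-independent variants 4 rose and 3 fell: the H2A variant genes H2afz (0.55 ± 0.14) and H2afy (0.53 ± 0.049) rose, and the replacement H3 gene H3f3a (-0.31 ± 0.059) and H2afj (-0.30 ± 0.077) fell. Among 26 chaperones, which escort histones to DNA, 10 rose and 8 fell, from Asf1b (1.69 ± 0.16) to the importin Ipo4 (-1.09 ± 0.057).

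Lists of cell cycle genes and cell type markers are set beside this comparison, where 29.3% of all genes rose and 27.8% fell. Of 34 S phase and replication genes 16 rose and 1 fell (median 0.23), with summed levels of 327.9 to 364.9 CPM in 25Q and 382.6 to 439.3 in 72Q control. Cdc45, a component of the replicative helicase, rose by 1.76 ± 0.11, and the exception was the transcription factor gene E2f1 (-0.33). Pcna, the replication clamp, differed by 0.07 ± 0.059 and did not pass. Of 22 genes of G2 and mitosis 15 rose and none fell (median 0.35), with sums of 162.1 to 216.4 and 209.0 to 311.6 CPM. Summed neuronal markers were lower, 10660 to 11610 CPM against 7400 to 8641, with 7 of 12 fallen and 1 risen. Sums were 3259 to 3586 against 3434 to 3981 CPM for astrocytes (7 of 12 risen, none fallen), 1253 to 1487 against 1323 to 1557 for the oligodendrocyte lineage (4 risen, 2 fallen of 12), and 491.0 to 601.9 against 519.5 to 648.7 for progenitors (3 of 10 risen, 1 fallen). The shares of the last 2 lists were near or under those of all genes, and their sums overlapped. Microglial markers summed to 11.2 to 12.3 CPM in 25Q and 9.94 to 12.0 in 72Q control, with none of 3 tested called, and endothelial and mural markers to 9.01 to 20.8 and 10.5 to 20.1, with 1 of 5 risen and 1 fallen. Of 6 tested fibroblast and meningeal markers 4 fell and 1 rose (median -0.55), while their sums were 339.7 to 383.8 and 329.3 to 374.7 CPM. Pdgfra is in this list and in that of the oligodendrocyte lineage, so their sums are not independent. The part of these in the histone values was not tested.

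With Twist1 shRNA 1 few histone genes passed, and the one with the highest level, the H4 gene Hist1h4d, fell in every experiment. In 72Q neurons, 3 of 54 rose and 9 fell against the luciferase shRNA, beside 22.7% and 23.6% of all genes (46.3% in either direction). Both shares, 5.56% and 16.67%, were under the background. Medians were -0.02 log2 units for the set and -0.01 (-0.005) for all genes. Of the 12 calls 5 held under all 25 alternatives: Hist1h3f, Hist1h4c, Hist1h4d, Hist3h2a and Hist4h4. Without the experiment term none rose and 5 fell, without the 72Q control library of exp108 none rose and 7 fell, and DESeq2 gave none and 8. Of all genes, 30.2% were called without the experiment term and 41.94% under DESeq2.

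Hist1h4d had 254.7, 258.5, 230.0 and 226.5 CPM in the 72Q control libraries of exp107, exp108, exp109a and exp109b. With shRNA 1 it had 188.9, 167.5, 152.7 and 163.1, all below every control value. The change was -0.53 ± 0.051 (adjusted p = 6.27e-10), between -0.55 and -0.51 over all alternatives. Hist3h2a (chr11:58954685-58956830) had 17.1, 32.3, 23.0 and 21.4 CPM in the control and 12.9, 17.6, 15.1 and 15.0 with shRNA 1. The groups overlapped because exp107 was lowest in both, yet each experiment was lower with the shRNA, and the change was -0.61 ± 0.078 (adjusted p = 1.26e-07). Hist3h2a overlaps the listed gene Trim17 on the same strand, so reads there cannot be assigned with certainty. Hist1h3f fell by -0.40 ± 0.074, without overlap between the groups, after having risen in 72Q; both comparisons use the same 72Q control libraries.

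The class H4 held 5 of the 9 falls. They were 41.67% of its tested genes, in a comparison where 23.6% of all genes fell and 22.7% rose. Besides Hist1h4d these were Hist1h4i (-0.35 ± 0.085), Hist1h4c (-0.31 ± 0.073), Hist4h4 (-0.26 ± 0.061) and Hist2h4 (-0.19 ± 0.061), while Hist1h4j rose by 0.25 ± 0.10 and 6 of 12 did not pass. The remaining falls were Hist1h2be (-0.28 ± 0.089) and Hist1h3e (-0.14 ± 0.053). Hist1h2be overlaps the listed gene Gm11398 on the same strand, so reads there cannot be assigned with certainty. Hist1h3b (0.28 ± 0.10) and Hist3h2ba (0.15 ± 0.059) rose, and the calls of these, of Hist1h3e and of Hist1h4j ended under DESeq2. Those of Hist1h4i, Hist1h2be and Hist2h4 ended without the experiment term. None of the 5 tested H1 genes passed, with changes from 0.06 ± 0.077 (Hist1h1c) to 0.11 ± 0.072 (Hist1h1d). Slbp fell by -0.25 ± 0.061 (35.0 to 38.1 CPM in the control, 27.7 to 34.1 with shRNA 1), and Npat by -0.30 ± 0.059. Of the 3′ processing genes 7 of 25 rose and 5 fell, and of the chaperones 9 of 26 rose and 9 fell, among them Asf1b (-1.03 ± 0.15). The replication gene Cdc45 fell by -1.13 ± 0.10. Lists of S phase (2 of 34 risen, 6 fallen) and of G2 and mitosis (none of 22 risen, 2 fallen) had medians of -0.08 and 0.04. Of the oligodendrocyte lineage list 7 of 12 fell and none rose, with sums of 1323 to 1557 CPM in the control and 1063 to 1210 with shRNA 1. Of progenitor markers 3 of 10 fell (519.5 to 648.7 and 502.3 to 607.8 CPM), of neuronal markers 4 of 12 rose and 1 fell (7400 to 8641 and 8147 to 8937), and of astrocyte markers 2 of 12 rose and 1 fell (3434 to 3981 and 3747 to 4105). Fibroblast and meningeal markers had 3 rises and 2 falls of 6 tested (median 0.09), while their sums were 329.3 to 374.7 and 256.8 to 319.4 CPM. These sums include Pdgfra, which the oligodendrocyte lineage list also holds. The part of these lists in the histone values was not tested.

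**Figure D3:**
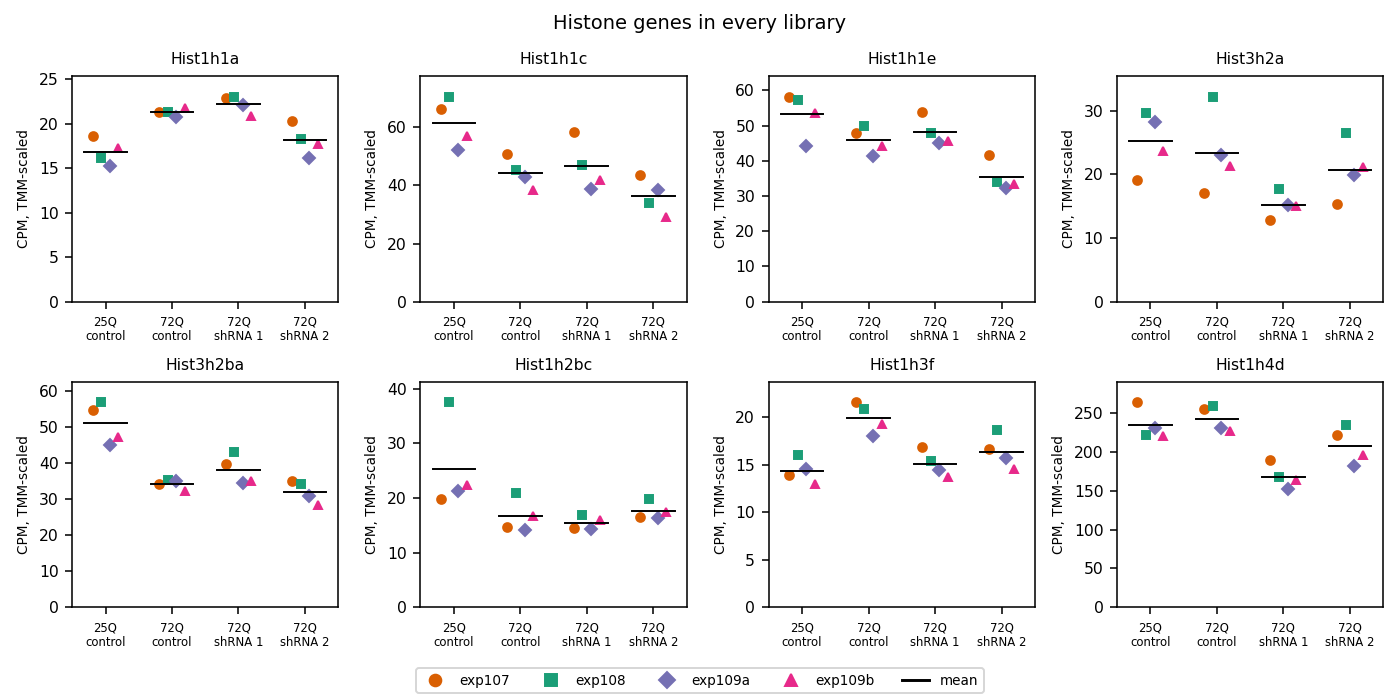
TMM-scaled CPM of 8 histone genes in each of the 16 libraries, by group, with a symbol for each experiment and a bar at the group mean (n = 4); axes start at 0. Hist1h4d with shRNA 1 (152.7 to 188.9) lies below all 72Q control libraries (226.5 to 258.5), and Hist1h1c and Hist3h2ba in 25Q lie above all 72Q control libraries.

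With Twist1 shRNA 2 many histone genes fell by small amounts. Against the same control, 25 of 54 fell and 1 rose, which is 46.3% and 1.85%, beside 21.5% and 20.2% of all genes (41.8% in either direction). The median was -0.24 log2 units, against 0.00 over all genes (0.002), and the lowest change was -0.48. Without the experiment term 13 fell and none rose. With library totals alone 17 fell and 1 rose, and DESeq2 gave 22 and none. Of all genes, 23.98% were called without the experiment term, 44.44% on library totals and 37.56% under DESeq2. Among all genes called on library totals, 65.26% rose. Of the 26 calls 9 held under all 25 alternatives: Hist1h1e, Hist1h2ai, Hist1h2bb, Hist1h2bg, Hist1h3a, Hist1h3d, Hist1h3e, Hist1h3f and Hist4h4.

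All 5 tested H1 genes fell, beside 21.5% of all genes. Hist1h1e had 48.0, 49.97, 41.3 and 44.4 CPM in the control and 41.7, 34.1, 32.3 and 33.4 with shRNA 2. It was lower in each experiment, with an overlap at exp107, and the change was -0.38 ± 0.058 (adjusted p = 4.45e-06). The others changed by -0.29 ± 0.078 (Hist1h1c), -0.27 ± 0.091 (Hist1h1b), -0.25 ± 0.074 (Hist1h1d) and -0.23 ± 0.069 (Hist1h1a). Hist1h1a fell from 20.7 to 21.8 CPM to 16.1 to 20.3, without overlap, a call that ended with library totals alone and without the exp109a library of shRNA 2. The calls of Hist1h1b, Hist1h1c and Hist1h1d ended without the experiment term.

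In H3, whose tail carries many of the best known chromatin marks, 7 of 10 fell, beside 21.5% of all genes. Hist1h3a had 7.49, 8.22, 8.08 and 6.81 CPM in the control and 5.21, 6.34, 5.33 and 4.98 with shRNA 2. No library of the second group reached the first, and the change was -0.48 ± 0.11 (adjusted p = 0.000727). The others were Hist1h3g (-0.39 ± 0.12), Hist1h3d (-0.38 ± 0.081), Hist1h3c (-0.38 ± 0.12), Hist1h3i (-0.34 ± 0.12), Hist1h3e (-0.33 ± 0.053) and Hist1h3f (-0.28 ± 0.072). In H2B, Hist1h2bb fell from 20.2 to 23.2 CPM to 15.0 to 17.6, again without overlap, by -0.44 ± 0.067 (adjusted p = 3.51e-06). Hist1h2bn, Hist1h2bk and Hist1h2bg fell by -0.37, -0.33 and -0.26. In H2A the 4 falls were Hist1h2ai (-0.41 ± 0.097), Hist2h2ac (-0.38 ± 0.14), Hist1h2ak (-0.34 ± 0.073) and Hist1h2ab (-0.30 ± 0.090). The shares fallen were 30.77% of tested H2B genes and 28.57% of tested H2A genes. The calls of Hist2h2ac and Hist1h2bk ended under DESeq2, and those of Hist1h2ak and Hist1h2bn without the experiment term.

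In H4 the falls were Hist1h4n (-0.39 ± 0.14), Hist4h4 (-0.34 ± 0.061), Hist2h4 (-0.34 ± 0.061), Hist1h4h (-0.23 ± 0.065) and Hist1h4d (-0.23 ± 0.051), out of 12 (41.67%, beside 21.5% of all genes). Of these 5, the call of Hist4h4 alone held without the experiment term. The lone riser was the H2B gene Hist2h2be (0.45 ± 0.17), at 1.39 to 3.32 CPM in the control and 2.90 to 4.05 with shRNA 2, and its call ended under DESeq2 and without the experiment term. By annotation, 18 of 35 members with a stem-loop in an annotated transcript fell and none rose, beside 7 of 19 fallen and 1 risen without it. Members without it include some annotated only to the stop codon, such as Hist1h2ai and Hist1h4k. In those a loop could not be found, and they need not lack it. By shared sequence, 16 of 31 members sharing under 50% of their 50-base stretches fell, and 9 of 23 sharing more. Neither difference between the subsets was tested.

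Some of the other lists also held more falls than rises with this shRNA, beside 21.5% fallen and 20.2% risen over all genes. Of 22 G2 and mitosis genes 12 fell and none rose (median -0.28), with sums of 209.0 to 311.6 CPM in the control and 191.2 to 235.5 with shRNA 2. S phase and replication genes gave 3 falls and 1 rise of 34 (median -0.06), a lower share of each than over all genes. Of the 3′ processing genes 7 of 25 rose and 3 fell, and of the chaperones 5 of 26 rose and 6 fell. Of oligodendrocyte lineage markers 9 of 12 fell, with sums of 1323 to 1557 and 884.7 to 1102 CPM, of progenitor markers 8 of 10 (519.5 to 648.7 and 416.1 to 492.8), of astrocyte markers 7 of 12 (3434 to 3981 and 2927 to 3672), and of neuronal markers 7 of 12, with 3 risen (7400 to 8641 and 6949 to 7970). None of the defining markers Olig2, Pdgfra or Rbfox3 was at 0 in any library: Olig2 had 164.4 to 206.9 CPM in the control and 117.8 to 155.9 with shRNA 2. Fibroblast and meningeal markers had 2 rises and 1 fall of 6 tested (median 0.28), while their sums were 329.3 to 374.7 and 232.1 to 273.8 CPM. Since Pdgfra counts in these sums and in those of the oligodendrocyte lineage, the lists are not independent. Microglial markers summed to 9.94 to 12.0 CPM in the control and 14.9 to 15.7 with shRNA 2, without overlap, with 1 of 3 tested risen. Endothelial and mural markers had 2 rises and 1 fall of 5, with sums of 10.5 to 20.1 and 10.1 to 17.3 CPM. The part of these lists in the histone values was not tested. Of the replication-independent variants 3 of 11 fell and none rose (median -0.14). Slbp (-0.08 ± 0.060) and Lsm11 (-0.24 ± 0.10, adjusted p = 0.0907) did not pass.

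The 2 Twist1 shRNAs differed from each other in histone genes when their libraries were compared directly. With shRNA 1, 24 of 54 were higher and 5 lower than with shRNA 2, beside 27.3% and 25.9% of all genes (53.2% in either direction). The median was 0.21 log2 units against 0.01 (0.005). Of the 29 calls 15 held under all 25 alternatives. Without the experiment term 17 were higher and 2 lower, and with library totals alone, which moved the median of all genes to -0.08, the split was 15 and 7. Of all genes, 36.44% were called without the experiment term. Among all genes called on library totals, 36.54% were higher. All 5 H1 genes were higher with shRNA 1, from 0.30 ± 0.069 (Hist1h1a) to 0.44 ± 0.058 (Hist1h1e), and 7 of 10 H3 genes, led by Hist1h3g (0.60 ± 0.12). Hist1h3g had 7.52, 7.77, 7.39 and 7.54 CPM with shRNA 1 and 5.42, 5.03, 4.38 and 5.03 with shRNA 2. The groups did not overlap. Hist1h2bn (0.59 ± 0.11), Hist1h2ai (0.54 ± 0.096), Hist1h2ab (0.49 ± 0.088), Hist1h2af (0.48 ± 0.12), Hist1h3b (0.44 ± 0.10), Hist1h2bl (0.41 ± 0.15) and Hist1h2bb (0.39 ± 0.067) followed. The lower genes were Hist1h2bp (-0.78 ± 0.30, under 1.1 CPM in every library), Hist3h2a (-0.44 ± 0.078), Hist1h4i (-0.33 ± 0.084), Hist1h4d (-0.31 ± 0.051) and Hist1h4c (-0.20 ± 0.073). Slbp was lower with shRNA 1 (-0.17 ± 0.061), as was Npat (-0.42 ± 0.058). Several other lists held more higher than lower calls in the same comparison, where 27.3% of all genes were higher. With shRNA 1, 9 of 22 G2 and mitosis genes were higher and 1 lower, with sums of 217.1 to 264.9 CPM against 191.2 to 235.5. The counts were 8 higher and none lower of 12 oligodendrocyte lineage markers (1063 to 1210 against 884.7 to 1102 CPM), 7 and 1 of 12 astrocyte markers (3747 to 4105 against 2927 to 3672), 6 and 2 of 10 progenitor markers (502.3 to 607.8 against 416.1 to 492.8) and 8 and 3 of 12 neuronal markers (8147 to 8937 against 6949 to 7970). S phase genes gave 6 and 5 of 34, chaperones 9 and 9 of 26, and 3′ processing genes 5 and 8 of 25. Fibroblast and meningeal markers gave 4 and 2 of 6 tested, and microglial markers 1 and 1 of 3, with sums of 10.0 to 12.3 CPM with shRNA 1 and 14.9 to 15.7 with shRNA 2. The part of these lists in the histone values was not tested.

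The mean of both Twist1 shRNAs in 72Q was also set against 25Q control, a comparison that shares its groups with those above. Here 5 of 54 were higher and 15 lower, beside 30.4% and 32% of all genes (62.5% in either direction), and this split depended on scaling. Upper-quartile factors gave 15 higher and 13 lower, and library totals 20 and 11, with a median of all genes of 0.17 (0.175) in place of 0.01. Among all genes called, 61.44% were higher with upper-quartile factors and 70.32% on library totals, in place of 48.7%. Hist1h2bc (-0.60 ± 0.075), Hist1h1c (-0.58 ± 0.065), Hist1h4n (-0.58 ± 0.12), Hist3h2ba (-0.54 ± 0.049), Hist2h4 (-0.54 ± 0.051), Hist3h2a (-0.51 ± 0.065) and Hist2h2ac (-0.47 ± 0.12) were lowest. Hist1h1a (0.25 ± 0.062) and Hist1h2af (0.32 ± 0.11) were among the 5 higher. Side by side, Hist1h1c was at 52.2 to 70.7 CPM in 25Q control, 38.5 to 50.9 in 72Q control, 38.9 to 58.6 with shRNA 1 and 29.1 to 43.5 with shRNA 2. Hist3h2ba was at 45.1 to 56.8, 32.4 to 35.5, 34.5 to 43.2 and 28.4 to 35.0. No shRNA library of Hist3h2ba reached the 25Q range.

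Summed over all 67 genes, histone RNA was higher in 72Q control than with either Twist1 shRNA in each of the 4 experiments, while its order against 25Q control rested on the scaling. In CPM on library totals the sums were 997.2 ± 64.0 in 25Q control, 1081 ± 74.9 in 72Q control, 966.6 ± 94.5 with shRNA 1 and 966.5 ± 58.8 with shRNA 2 (SD, n = 4). No p is given for a sum over chosen members. With TMM-scaled totals the 4 sums were 1082, 1068, 960.2 and 907.6, and 72Q control, above 25Q control in all 4 experiments on library totals, was above it at exp108 only. On that scale 72Q control again stood above both shRNA groups in all 4 experiments, and shRNA 2 (840.1 to 991.3) did not overlap with it (1013 to 1141). For shRNA 1 this rested on Hist1h4d. Without that gene shRNA 1 stood above 72Q control at exp107, at 884.3 against 839.8 CPM on library totals. On TMM-scaled totals the 2 values were 885.0 and 848.7. The sum with shRNA 2 remained below 72Q control in every experiment on both scales. H1 with shRNA 2 was 129.2 ± 11.8 CPM on library totals, beside 151.2 ± 8.52 in 72Q control and 158.3 ± 17.6 with shRNA 1. H4 was lowest with shRNA 1 at 449.5 ± 43.0, against 555.9 ± 38.1 in 72Q control, and without Hist1h4d the 2 values were 280.4 ± 28.1 and 310.5 ± 20.4.

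**Figure D4:**
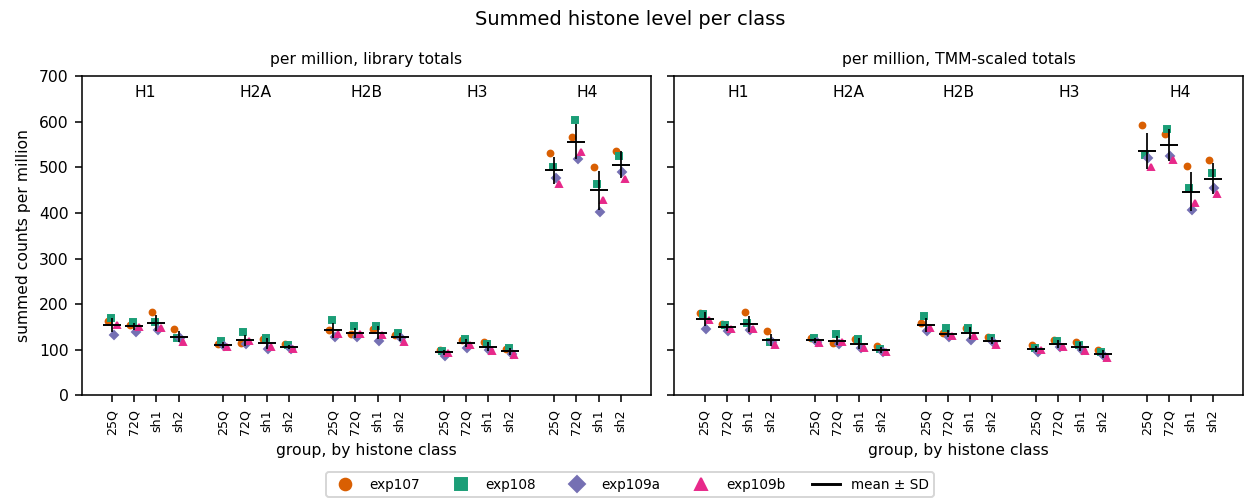
Summed CPM of each histone class in every library, by group, under library totals (left) and TMM-scaled totals (right), with the mean ± SD of n = 4; symbols mark the experiments. H4 holds the largest sums, and the step from 25Q to 72Q control in H4 (493.4 to 555.9 on the left) is 535.7 to 549.2 on the right.

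Genes that share a start region did not always pass together. In 13 places an H2A and an H2B gene are read away from each other with starts under 500 bases apart, and in 10 both were tested. Hist1h2ac and Hist1h2bc, the pair whose gap is printed above, changed by -0.12 ± 0.13 (not called) and -0.58 ± 0.089 in 72Q. The difference within the pair was not tested. Hist1h2ah and Hist1h2bk both rose (0.43 and 0.46). Hist1h2ak and Hist1h2bn both fell with shRNA 2 (-0.34 and -0.37). At Hist2h2ac and Hist2h2be the same shRNA gave -0.38 and 0.45, both called in opposite directions.

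A few histone genes separated by experiment. In 5 of 54 tested members the 4 libraries of 1 experiment lay wholly above or below the other 12, beside 3.46% of all genes tested. By experiment the shares of all genes were 1.08% at exp107, 2.24% at exp108, 0.0596% at exp109a and 0.0728% at exp109b. Hist1h4i had 6.46 to 8.89 CPM in the exp107 libraries and 13.2 to 23.2 in all others, whichever fragment or shRNA they carried. Hist1h2ak (32.3 to 40.1 in exp107, 16.8 to 28.5 elsewhere), Hist1h4k (25.4 to 30.5 and 16.2 to 24.8) and Hist1h4n (3.65 to 6.13 and 1.89 to 3.55) were high in exp107. Hist1h2al had 18.4 to 27.9 CPM in exp108 and 10.3 to 18.1 elsewhere. With the experiment as a term, the part of a step common to all groups does not enter the group comparisons. A part that differs between groups does. The 25Q library was the highest of exp108 for Hist1h2al (27.85 CPM) and of exp107 for Hist1h4n (6.134 CPM). Without the experiment term the shRNA 1 call of Hist1h4i ended (-0.35, adjusted p up to 0.537 over all alternatives).

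**Figure D5:**
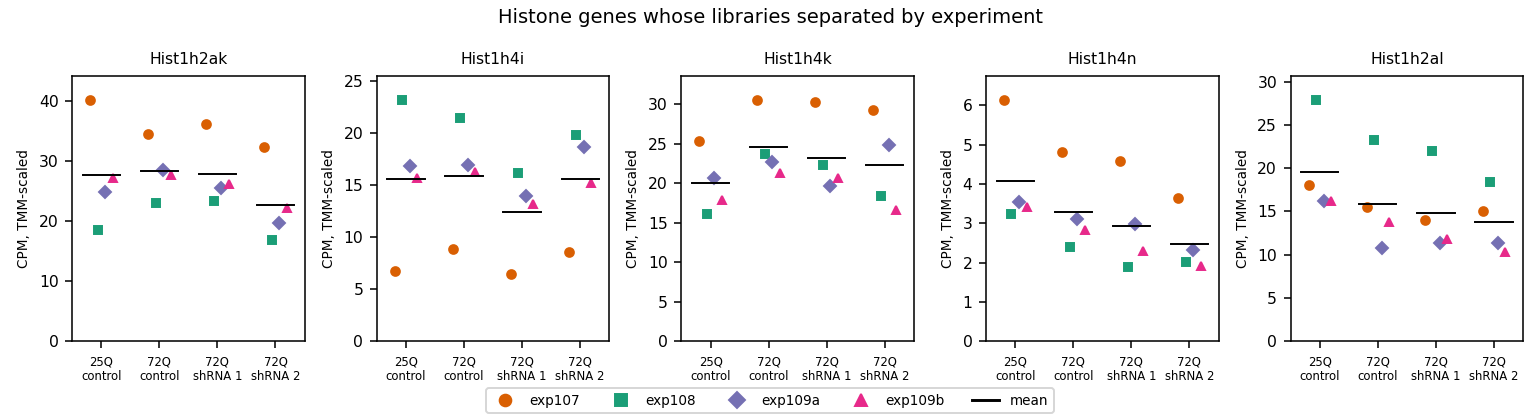
TMM-scaled CPM of the 5 histone genes whose libraries separated by experiment, by group, with a bar at the group mean (n = 4) and axes starting at 0. In Hist1h4i the exp107 libraries (6.46 to 8.89) lie below all others in every group; in the other 4 panels 1 experiment lies above.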

How the data were processed

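Total RNA depleted of ribosomal RNA was sequenced from 16 libraries, and a table per library gave counts, CPM and RPKM for 41388 Ensembl genes. The counts are whole reads per gene as the authors deposited them; the submitters' processing notes name GRCm38, STAR 2.0.4b and featureCounts 1.45 of Subread. The sources used do not give strandedness, the handling of reads with several matches or the annotation release. The deposited CPM values are counts scaled by the library's total, and the deposited RPKM values divide these by the listed gene length: both were recomputed from the counts within 4.7e-11. Every row of the files carried a gene identifier.

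Symbols, transcripts and coding regions came from GENCODE M21 (40254 identifiers matched, 97.26%), and promoters from RefSeq on GRCm38.p6. Of the matched identifiers, 75.97% had the same coordinates in M21 as in the deposited files. Hist1h4d, for example, had a listed length of 393 bases and an M21 transcript of 1138. Stem-loops, polyadenylation signals and shared 50-base stretches describe M21 transcripts, while counts and RPKM rest on the listed genes. Counts were fitted with edgeR 4.0.16 in R 4.3.3 (quasi-likelihood test, filterByExpr, TMM factors, robust dispersion, prior count 2) on group plus experiment over all 16 libraries, leaving 15103 genes and a biological coefficient of variation of 5.24%. The scripts were checked on simulated data with known changes. The labels give each library an experiment, which pairs the groups. Deviations from the group means correlated at 0.2225 to 0.6125 within experiments (mean 0.3918, 24 pairs). Between experiments they correlated at -0.3329 to 0.2782 (mean -0.1277, 72 pairs), so the ranges overlapped. Taking deviations from group means by itself pulls the mean between experiments down, so the 2 means are not independent. Alternatives were no experiment term, the titles' replicate number as a block, upper-quartile factors, library totals, DESeq2 1.42.0, no filter, at least 1 CPM in 4 libraries, a prior count of 0.125, only the groups compared, and each library left out. Replicates differed by more than counting noise, with a chi-square per degree of freedom of at least 2.851 in every pair.

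Names were drawn from the 12 members highest in RPKM, the up to 10 highest and 10 lowest called members of each comparison, the member highest in counts of each class, up to 3 highest and 3 lowest called genes of each list in 72Q against 25Q, Twist1 and Slbp. These groups were not named in full. For the lists and for some comparisons only a part is given, and no rule set beforehand fixed which. Other names were added after their values were seen, to complete a class or describe untested genes. Members and lists were chosen with earlier results of these data known.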

Additional observations from a re-analysis of the deposited data

Results flagged for a closer look

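In 184 tests of a single library against the other 3 of its group, over the named histone genes and the summed levels, 12 libraries stood apart by Dixon's criterion, and chance gives about 1 in 20. Values are TMM-scaled CPM. At exp108 the 25Q library of Hist1h2bc had 37.5 (the other 3, 19.9 to 22.3) and that of Hist1h2al 27.85 (16.2 to 18.1), both high. Hist1h2bf at exp108 was low in 25Q, at 3.298 (3.93 to 4.04), and high in 72Q control, at 7.114 (4.63 to 4.93). At exp107 the high libraries were Hist1h4f in 72Q control at 24.24 (21.4 to 21.7), Hist1h4n in 25Q at 6.134 (3.24 to 3.55), Hist1h2af with shRNA 1 at 9.22 (5.42 to 6.05) and Hist1h4j with shRNA 1 at 10.45 (7.73 to 8.10). With shRNA 2 exp107 was high for Hist2h4 at 53.68 (38.6 to 40.96), for Hist1h2bj at 4.509 (3.28 to 3.44) and for Hist1h2ab at 11.49 (9.24 to 9.49). The 25Q library of exp109b was low for Hist2h2ac, at 3.934 (5.94 to 6.29). The cause of these values was not tested.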

How the results depend on the processing

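The model without the experiment term called fewer histone genes: 7 in 72Q against 25Q in place of 21, 5 in place of 12 for shRNA 1, 13 in place of 26 for shRNA 2, 19 in place of 29 between the shRNAs and 13 in place of 20 for the mean of both shRNAs against 25Q. It also called fewer of all genes. In the same order the shares were 43.21% (main fit 57.13%), 30.2% (46.34%), 23.98% (41.76%), 36.44% (53.17%) and 50.1% (62.45%). With the titles' replicate number as the block, 11 were called in 72Q against 25Q and 7 for shRNA 1, beside 47.57% and 35.18% of all genes. With library totals alone 31 were called for the mean of both shRNAs against 25Q, beside 68.49% of all genes. Leaving out 1 library gave 7 to 12 calls for shRNA 1, the lowest without the 72Q control library of exp108, and totals within 1.5 times the stated count for the other comparisons; by direction, 72Q against 25Q went from 14 higher and 7 lower to 7 and 7 without the 25Q library of exp108, and the mean of both shRNAs from 5 and 15 to 3 and 15 without the exp109a library of shRNA 2. Summed histone CPM was 1082 in 25Q control and 907.6 with shRNA 2 on TMM-scaled totals. On library totals without Hist1h4d it was 781.7, 835.5, 797.5 and 745.0 in 25Q control, 72Q control, shRNA 1 and shRNA 2, and on TMM-scaled totals without Hist1h4d 848.1, 825.3, 792.2 and 699.7. Of 4195 single-gene values under all alternatives 3800 kept direction and call, 393 kept direction only and 2 changed sign, both on library totals: Hist1h2bb at 0.023 for the mean of both shRNAs against 25Q, and the oligodendrocyte precursor marker Cspg4 at 0.011 in 72Q against 25Q. Reads shared between near-identical genes and genes under about 1 CPM, such as Hist1h2bp, limit single values. The cause of the changes was not tested.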
